A study of Mus musculus with 20 samples.

Results

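The dentate gyrus is the entry station of the hippocampus, and its granule cells keep a molecular record of how active the network has been. After repeated seizures or lasting overactivity, granule cells are known to lose the calcium buffer calbindin and to raise genes of secreted peptides, synaptic organisers and signalling enzymes, while fast immediate early genes such as Fos tend to become less inducible. The genes described here are 10 that are known from such work, Calb1, Nptx1, Nptx2, Vgf, Scg2, Pcsk1, Ptgs2, Rgs4, Acvr1c and Sv2c. They were chosen by name as genes known to follow such activity, and with earlier results of these data known. Shares of all genes tested are therefore given for scale and do not test the 10 as an independent set. All 10 were found among the 24421 gene symbols counted in every library. None of them is particular to granule cells, and the tissue was sequenced in bulk, so that a change in RNA per cell cannot be told apart from a change in the number of cells that make it.

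RNA-seq libraries of the neocortex (NCX) and the hippocampus (HP) of mice at 3 months of age were compared, 20 in all and 5 in each of the 4 groups that genotype and region make. The cTKO mice carried floxed APP, APLP1 and APLP2 alleles together with Cre recombinase under the Camk2a promoter, which acts after birth in excitatory neurons of the forebrain and leaves the 3 genes intact in interneurons and glia. Littermate controls, which GEO labels as wild type, carried the same floxed alleles without Cre. Mice were of both sexes on a mixed C57BL/6 J and 129 background, and Xist exceeded the Y-linked Ddx3y in 2 of 5 libraries of each group.

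The deletion was seen in every cTKO library. In log2 units, App fell by 2.10 in the neocortex and by 1.78 in the hippocampus, Aplp1 by 1.92 and 1.93, and Aplp2 by 1.60 and 1.25, with no overlap between genotypes. Total counts were between 12169474 and 25331954 per library, so that 3 counts, taken as the smallest level a library can show, stood for 0.118 to 0.247 CPM, a gene's counts scaled by library size to a common total. This limit covers counting error only, and all 10 genes were far enough above it to be tested in both regions. The hippocampal libraries were those of a tissue with granule cells, since the summed level of 8 granule cell markers (Prox1, Dsp, C1ql2, Tdo2, Plk5, Lct, Stxbp6 and Dock10) was 456 to 765 CPM there against 161 to 233 CPM in the neocortex. A pair of libraries, cTKO NCX 5 and cTKO HP 4, also held RNA of embryonic tissue, with the embryonic globin Hbb-y at 193 and 121 CPM against at most 0.818 CPM in any other library. Where leaving them out changed a call, the value without them is also given. Library 3 of the cTKO group stood apart in another way. The activity-induced gene Fosb was at 107 CPM in the hippocampus and 180 CPM in the neocortex. Any other library of the same region had at most 29.7 CPM and 63.6 CPM.

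In the hippocampus, the genes known from overactive granule cells were mostly higher in cTKO mice, and Calb1 was lower. At an FDR under 0.05 by edgeR's quasi-likelihood test, Acvr1c, Sv2c and Rgs4 rose, by 2.39-fold, 2.03-fold and 1.68-fold. These are 3 of 10 genes, where 0.314% of the 13702 genes tested rose and 0.489% changed in either direction. The direction was upward for 9 of 10, against 51.6% of all genes tested, and the median log2 fold change was 0.65 against 0.0049. An unadjusted p under 0.05 was reached by 8 of the 10, 7 upward and Calb1 downward, where 12% of all genes reached it. The genotypes did not overlap for 5 of the 10, with all cTKO libraries above all controls for Acvr1c, Sv2c, Rgs4 and Scg2 and below them for Calb1, where 3.13% of all genes did not overlap. By exact permutation tests of log2 CPM, 7 of 10 had an unadjusted p under 0.05, where 11% of all genes did. As the 10 genes were chosen with earlier results of these data known, these shares do not test them as an independent set.

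**Figure D1:**
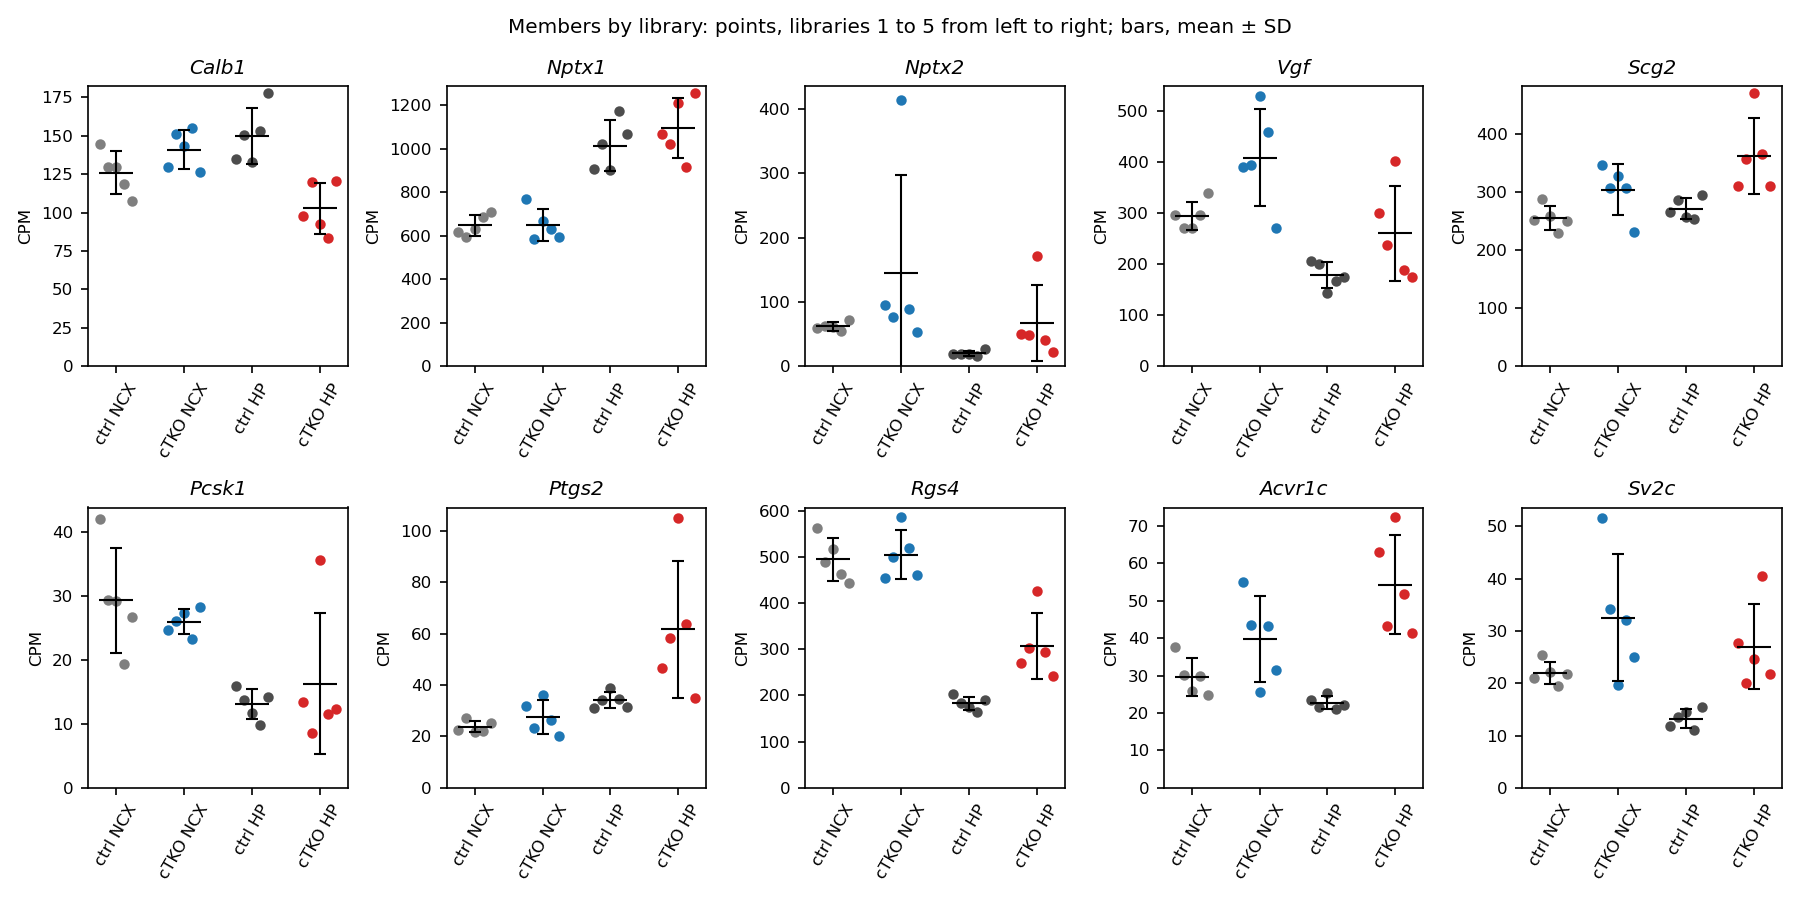
Level of each of the 10 genes in CPM (vertical axis, linear, from 0) in the 20 libraries, by genotype and region. Each point is a library, in the order 1 to 5 from left to right, and the bars give the mean ± SD of 5 libraries (the lower bar of Nptx2 in cTKO NCX passes below 0 and is not drawn there); Acvr1c in cTKO HP lies between 41.3 and 72.4 CPM, above the highest control at 25.4 CPM.

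Among signalling genes, Acvr1c showed the smallest p of the 10 and ranked 9 of the 13702 genes tested in the hippocampus. Acvr1c encodes ALK7, a type I receptor of the TGF-beta family that signals for activin B, nodal and related ligands through Smad proteins. It stood at 23.6, 21.6, 25.4, 21.1 and 22.1 CPM in control HP libraries 1 to 5 and at 63.1, 43.2, 72.4, 51.7 and 41.3 CPM in cTKO HP libraries 1 to 5. Every cTKO library lay above every control, and the controls were close together. The log2 fold change was 1.26 (SE 0.143, 95% confidence interval 0.95 to 1.57, n = 5 per genotype, FDR 0.00153 by edgeR's quasi-likelihood test), and the exact permutation p was 0.00794, the smallest that 5 libraries against 5 can give. It was called with each library left out in turn, with a highest FDR of 0.0118. In the neocortex, Acvr1c ranged from 24.7 to 37.7 CPM in controls and stood at 55.0, 43.6, 25.5, 43.2 and 31.5 CPM in cTKO NCX libraries 1 to 5, so that 3 of 5 cTKO libraries lay above all controls. Its log2 fold change there, 0.43 (SE 0.176), had an FDR of 0.411 by edgeR. Acvr1c lies on the minus strand of chromosome 2 (GRCm38.p6, 58267453 to 58357896), and 168 bases of its exons overlap an antisense transcript, Gm13544. As the counting is not stated to have used strand, reads of this stretch cannot be assigned to either gene.

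Rgs4 encodes a regulator of G protein signalling that speeds the switching-off of Gi and Gq proteins downstream of many neurotransmitter receptors, and lies on the minus strand of chromosome 1 (GRCm38.p6, 169741477 to 169747642). In control HP libraries it was at 202, 183, 176, 165 and 189 CPM, and in cTKO HP libraries at 270, 303, 427, 294 and 242 CPM. The lowest cTKO library was above the highest control. It rose by 0.75 on the log2 scale (SE 0.129, interval 0.47 to 1.03, FDR 0.0236 by edgeR, exact permutation p 0.00794). The neocortex had more Rgs4 and showed little difference, with control libraries at 444 to 563 CPM and cTKO libraries at 454 to 586 CPM and a log2 fold change of 0.033 (interval -0.13 to 0.20, FDR 0.923).

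Sv2c encodes a synaptic vesicle glycoprotein, the member of the SV2 family with the most restricted expression in the forebrain. The gene spans chromosome 13 from 95959443 to 96132577 (minus strand), and other genes overlap its span but share no exon base with it. Control HP libraries held 11.8, 13.5, 14.4, 11.1 and 15.5 CPM, and cTKO HP libraries 27.8, 20.1, 24.7, 40.6 and 21.7 CPM, with no overlap. The highest of these, cTKO HP 4, is a library with embryonic RNA. The rise was 1.02 on the log2 scale (SE 0.176, interval 0.64 to 1.40, FDR 0.0236 by edgeR, exact permutation p 0.00794), and it was 0.83 with an FDR of 0.0123 without that library. In the neocortex, Sv2c was at 19.6 to 25.3 CPM in controls, and cTKO NCX 1, 2 and 4, at 51.6, 34.2 and 32.0 CPM, were above them while cTKO NCX 3 and 5, at 19.7 and 25.0 CPM, were not. The log2 fold change of 0.58 (SE 0.197) had an FDR of 0.310.

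The calls of Rgs4 and Sv2c were close to the threshold, while their fold changes moved little. With one of 10 libraries left out, Rgs4 was called in 4 fits and Sv2c in 5, with highest FDRs of 0.0925 and 0.0876, and their log2 fold changes stayed between 0.60 and 0.82 and between 0.83 and 1.11. At the same threshold, Acvr1c alone was called without control HP 1, 2, 3 or 4. Without cTKO HP 5, 6 of the 10 genes were called, with Calb1 (FDR 0.0292), Nptx2 (0.0352) and Ptgs2 (0.0304) added.

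Granins and related precursors are stored in dense core vesicles and cut into peptides that neurons release with activity. Scg2, the precursor of secretoneurin, was at 267, 287, 257, 255 and 295 CPM in control HP libraries and at 311, 357, 471, 365 and 310 CPM in cTKO HP libraries. All cTKO libraries were above all controls, the lowest by a small margin. Its log2 fold change was 0.42 (SE 0.107, interval 0.19 to 0.65), with an FDR of 0.129 by edgeR and an exact permutation p of 0.00794. In the neocortex, 4 of 5 cTKO libraries were above the 5 controls (230 to 288 CPM), and cTKO NCX 5 was at 232 CPM. There, the log2 fold change was 0.26 (SE 0.0913) with an FDR of 0.333, and without cTKO NCX 5, which held embryonic RNA, it was 0.33 with an FDR of 0.0382 and an exact permutation p of 0.0159.

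Vgf, a precursor of several secreted peptides that is raised by neurotrophins, was at 207, 200, 144, 167 and 175 CPM in control HP libraries and at 301, 238, 402, 189 and 174 CPM in cTKO HP libraries. The first 3 cTKO libraries were above all controls and the other two among them. Vgf thus had a log2 fold change of 0.55 (SE 0.200, interval 0.12 to 0.98, FDR 0.297 by edgeR), and the exact permutation p was 0.0873, or 0.0397 without cTKO HP 4, which held embryonic RNA. The neocortex gave a similar value, 0.48 (SE 0.131, interval 0.20 to 0.76, FDR 0.193), with cTKO NCX libraries 1 to 4 at 391, 395, 531 and 459 CPM above the controls (270 to 340 CPM) and cTKO NCX 5 at 272 CPM. Vgf was the single gene of the 10 with an exact permutation p under 0.05 in the neocortex, 0.0317, which stayed under 0.05 in 4 of 10 tests with one library left out (highest 0.0714). Without cTKO NCX 5 its log2 fold change was 0.59 with an FDR of 0.0104.

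Pcsk1 encodes the prohormone convertase that cuts such precursors. It was at 15.9, 13.7, 11.7, 9.84 and 14.2 CPM in control HP libraries and at 13.5, 8.58, 35.6, 11.5 and 12.3 CPM in cTKO HP libraries. One library, cTKO HP 3, was far above the rest, and the others lay among or below the controls. The log2 fold change of 0.32 (SE 0.324, FDR 0.769 by edgeR) turned to -0.19 without that library. In the neocortex, with control libraries at 19.4 to 42.0 CPM and cTKO libraries at 23.3 to 28.2 CPM, it was -0.17 (interval -0.50 to 0.15, FDR 0.745), the only downward value of the 10 there.

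The neuronal pentraxins are secreted proteins that gather AMPA receptors at excitatory synapses, and Nptx2, also called Narp, is the activity-regulated one (chromosome 5, 144545887 to 144557478, plus strand). Nptx2 was at 19.4, 19.6, 19.1, 15.97 and 27.4 CPM in control HP libraries and at 50.7, 48.6, 171, 41.3 and 22.8 CPM in cTKO HP libraries. Libraries 1 to 4 of the cTKO group were above all controls, and library 5 was among them. Nptx2 had the largest log2 fold change of the 10, 1.72, and also the widest error (SE 0.435, interval 0.78 to 2.67, FDR 0.125 by edgeR, exact permutation p 0.0159). Without cTKO HP 3 it was 1.01. In the neocortex, it was at 54.2 to 72.5 CPM in controls and at 95.9, 75.9, 414, 89.3 and 52.9 CPM in cTKO NCX libraries. The log2 fold change of 1.23 (SE 0.445, FDR 0.338) was 0.36 without cTKO NCX 3 and 1.44 without cTKO NCX 5. The exact permutation p, 0.0714 with all libraries, was 0.00794 without cTKO NCX 5, the library with embryonic RNA. Its relative Nptx1, which is expressed constitutively, stood at 194 CPM per kb of exon in control HP, the highest of the 10 there, and at 124 CPM per kb in control NCX, where Rgs4 was higher at 160 CPM per kb. It was at 901 to 1175 CPM in control HP and 916 to 1254 CPM in cTKO HP, and its log2 fold changes were 0.11 in the hippocampus (interval -0.11 to 0.32, FDR 0.739) and 0.012 in the neocortex (interval -0.16 to 0.18, FDR 0.978).

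Ptgs2 encodes cyclooxygenase 2, the inducible enzyme of prostaglandin synthesis, which excitatory neurons of the forebrain make in response to synaptic activity. It was at 31.0, 34.2, 38.9, 34.7 and 31.6 CPM in control HP libraries and at 46.5, 58.4, 105, 63.6 and 34.8 CPM in cTKO HP libraries. The first 4 cTKO libraries were above all controls, and library 5 was not. For Ptgs2 the log2 fold change was 0.85 (SE 0.227, interval 0.36 to 1.35, FDR 0.146 by edgeR, exact permutation p 0.0159). In the neocortex, with control libraries at 21.9 to 27.0 CPM and cTKO libraries at 19.99 to 36.2 CPM, it was 0.22 (SE 0.135, FDR 0.614).

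Calb1 encodes calbindin-D28k, the calcium buffer with which mature granule cells are filled and which they are known to lose in epilepsy models and in mouse models with amyloid. It lies on the plus strand of chromosome 4 from 15881264 to 15906709. In control HP libraries Calb1 was at 135, 151, 133, 153 and 178 CPM, and in cTKO HP libraries at 98.1, 120, 92.5, 83.5 and 120 CPM. All cTKO libraries were below all controls. For Calb1 the log2 fold change was -0.54 (SE 0.112, interval -0.78 to -0.30), with an FDR of 0.0568 by edgeR, just over the threshold, and an exact permutation p of 0.00794. In the neocortex, where Calb1 is made by interneurons and by pyramidal cells of the upper layers, the value was upward, 0.17 (SE 0.0799, interval -0.0030 to 0.34, FDR 0.488), with controls at 108 to 145 CPM and cTKO mice at 126.2 to 155 CPM.

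**Figure D2:**
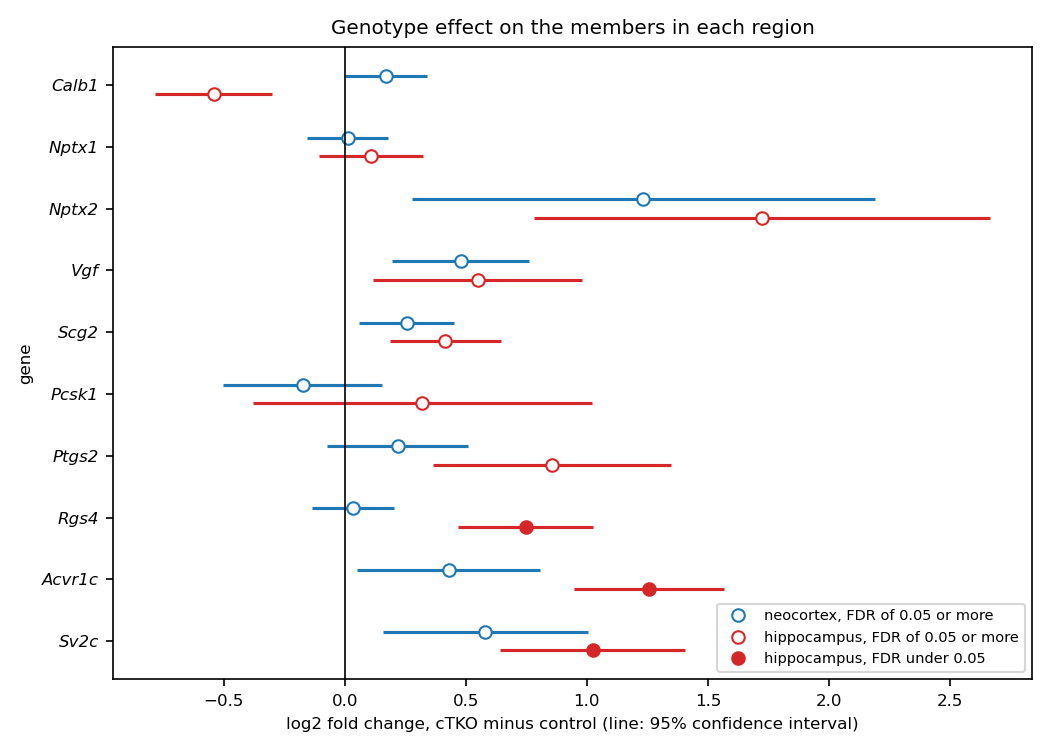
Log2 fold change between cTKO and control libraries (horizontal axis) of each gene in the neocortex (blue) and the hippocampus (red), with 95% confidence intervals of edgeR's quasi-likelihood fit (lines). Filled points have an FDR under 0.05, and Calb1 in the hippocampus, at -0.54, is the one whose interval lies below 0.

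In the neocortex, none of the 10 genes passed the test. By edgeR's quasi-likelihood test 0 of 10 had an FDR under 0.05, where 0.188% of the 13843 genes tested changed and 0.0867% rose. The direction was upward for 9 of 10, against 53.1% of all genes tested, and the median log2 fold change was 0.24 against 0.0090. At an unadjusted p under 0.05, 5 of the 10 were higher in cTKO mice, Nptx2, Vgf, Scg2, Acvr1c and Sv2c, where 10.4% of all genes reached it in either direction. By exact permutation tests, 1 of 10 had a p under 0.05, where 9.51% of all genes did, and 0 of 10 had genotypes that did not overlap, where 2.36% of all genes did. By DESeq2 and by edgeR's exact test, Vgf was called, with FDRs of 0.0310 and 0.0388. Without cTKO NCX 5, the library with embryonic RNA, 2 of 10 were called. The part of that RNA in its levels was not tested. Library cTKO HP 5, without such RNA, was within the control range of its region for Nptx2, Vgf, Ptgs2 and Pcsk1. It was above all controls for Nptx1, Scg2, Rgs4, Acvr1c and Sv2c and below them for Calb1, and no cause was tested.

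Whether the genotype effect differed between the regions was tested as an interaction of region and genotype, fitted to all 20 libraries at once. Both regions came from 5 mice of each genotype, and this fit treated the libraries as independent. By edgeR, 0 of 10 genes passed an FDR of 0.05, where 0.0564% of the 14192 genes tested did, and 4 had an unadjusted p under 0.05, where 3.75% did. Calb1 had the smallest p of the 10, with an effect in the hippocampus minus that in the neocortex of -0.70 on the log2 scale (SE 0.147, interval -1.01 to -0.40, FDR 0.0919 by edgeR). The effects of Rgs4 (0.72, SE 0.161, FDR 0.163), Acvr1c (0.83, SE 0.247, FDR 0.596) and Ptgs2 (0.64, SE 0.288, FDR 1.0) were higher in the hippocampus. Vgf had nearly the same value in both regions, with a difference of 0.075 (interval -0.47 to 0.62), an interval wide enough to hold a difference as large as either effect. DESeq2 called Calb1 (FDR 0.00309) and Rgs4 (FDR 0.00820), and so did edgeR without cTKO HP 5 (FDR 0.0301 and 0.0319). With libraries of one genotype and number fitted as one mouse, edgeR called Rgs4 (FDR 0.00956) and not Calb1 (FDR 0.184). The labels do not say if such libraries are of one mouse.

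Levels in control mice differed between the regions for most of the 10 genes. At an FDR under 0.05, 7 of 10 differed, where 51.1% of all genes tested did, so that this share is close to that of genes in general. Nptx1 (0.65 on the log2 scale, hippocampus minus neocortex) and Ptgs2 (0.52) were higher in the hippocampus. Nptx2 (-1.61), Rgs4 (-1.44), Pcsk1 (-1.17), Sv2c (-0.73) and Vgf (-0.72) were lower there. Calb1 (0.25, FDR 0.0511), Acvr1c (-0.39, FDR 0.0722) and Scg2 (0.087, FDR 0.521) did not pass the test. Calb1 passed with both libraries that held embryonic RNA left out (FDR 0.0401 by edgeR), and Calb1 and Acvr1c passed by DESeq2 (FDR 0.0498 and 0.0492). Ptgs2 passed in 13 of 20 fits with one library left out, with a highest FDR of 0.0871. The 3 genes that rose in the cTKO hippocampus were thus all at lower CPM in control hippocampus than in control neocortex, of which Sv2c and Rgs4 passed the test. In the cTKO hippocampus, Sv2c reached 27.0 ± 8.16 CPM (SD, n = 5) and Acvr1c 54.3 ± 13.3 CPM, against 22.0 ± 2.12 and 29.7 ± 5.09 CPM in control neocortex. Rgs4, at 307 ± 70.9 CPM, stayed under the 495 ± 46.8 CPM of control neocortex. RNA was extracted with a different kit from each region, and kit and region cannot be told apart. Per length of exon, the order in control hippocampus was Nptx1 (194 CPM per kb), Scg2 (108), Vgf (60.05), Rgs4 (59.0), Calb1 (30.9), Nptx2 (8.0), Ptgs2 (7.44), Acvr1c (2.45), Pcsk1 (2.33) and Sv2c (1.37). Vgf and Rgs4, and Acvr1c and Pcsk1, were neighbours in this order with nearly equal levels.

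**Figure D3:**
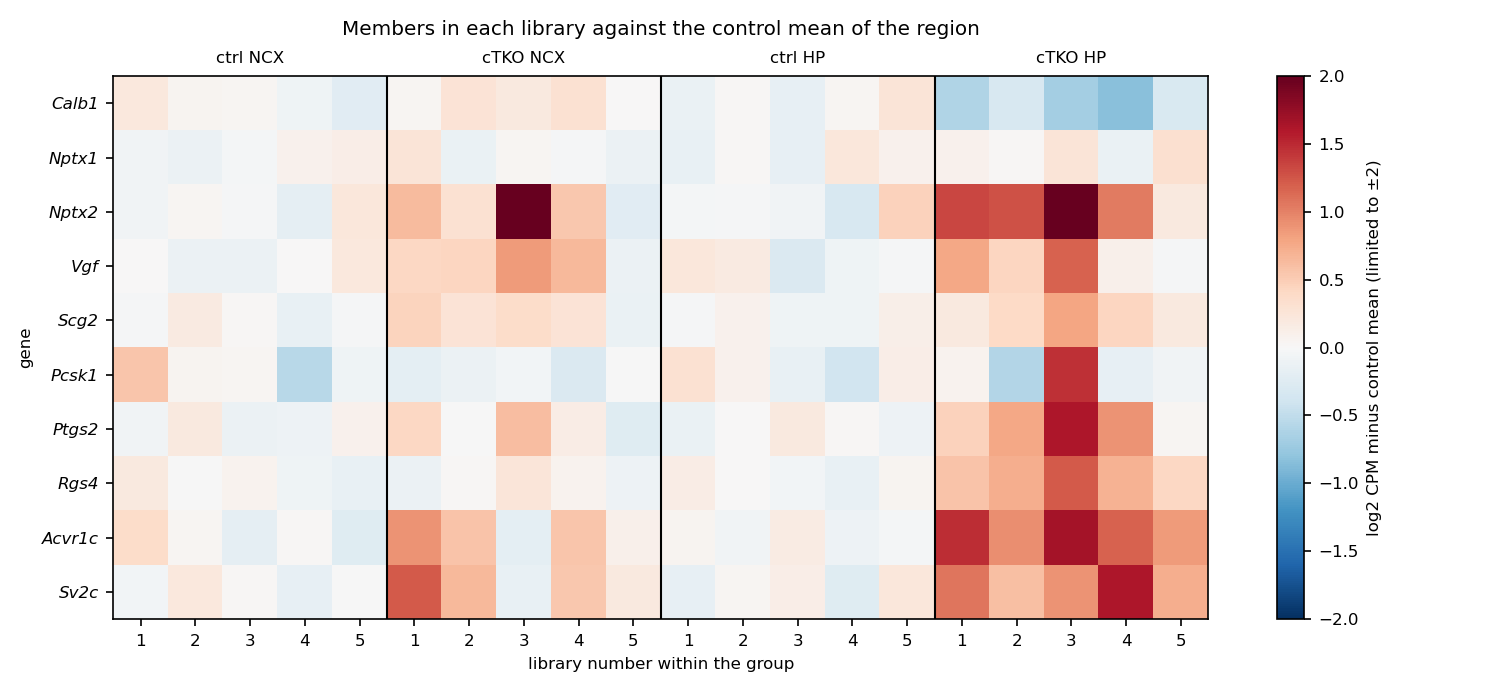
Log2 CPM of each gene in each of the 20 libraries minus the mean of the control libraries of the same region (colour, limited to ±2; red is higher). Columns are libraries 1 to 5 of each group; cTKO HP 3 is the highest of its group for 7 of 10 genes and cTKO HP 5 the lowest for 6.

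The cTKO mice were not uniform. Library cTKO HP 3 was the highest of its group for 7 of the 10 genes and cTKO HP 5 the lowest for 6. In cTKO HP 5, Nptx2, Vgf and Ptgs2 lay within the control range, at 22.8, 174 and 34.8 CPM. Scg2, Rgs4 and Acvr1c, also lowest there, were above all controls. This library did not hold embryonic RNA (Hbb-y at 0.296 CPM). In the neocortex, cTKO NCX 5 was the lowest for 5 genes, and cTKO NCX 1 and 3 were each the highest for 4. The genes divided between these last libraries by name, with Nptx2, Vgf, Ptgs2 and Rgs4 highest in cTKO NCX 3, and Nptx1, Scg2, Acvr1c and Sv2c in cTKO NCX 1. Acvr1c and Sv2c were near the control mean in cTKO NCX 3, at 25.5 and 19.7 CPM, where Nptx2 was at 414 CPM. Library cTKO HP 3 had the immediate early gene Egr3 at 906 CPM against 135 to 170 CPM in every other hippocampal library, and Arc at 349 CPM against at most 179 CPM. Fos there, at 16.5 CPM, was within the control range of 8.08 to 27.0 CPM. Egr3, Fosb, Arc and Fos were picked out after their values had been seen, and their part in the levels of the 10 genes was not tested.

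Over the 20 libraries, after the mean of each of the 4 groups was removed, the log2 CPM of the 10 genes covaried in blocks. Of 45 pairs, 34 had a positive Pearson r and 15 an r over 0.5, with a median of 0.25. The same counts over pairs of genes in general were not computed. Nptx2 with Ptgs2 (r = 0.81), Scg2 with Ptgs2 (0.81), Nptx2 with Vgf (0.79), Nptx2 with Rgs4 (0.76) and Pcsk1 with Rgs4 (0.74) were the closest. Acvr1c and Sv2c went with each other (0.62). Acvr1c was also positive with Pcsk1 (0.43), Scg2 (0.38), Ptgs2 (0.30), Vgf (0.29) and Rgs4 (0.25), and at 0.022 with Nptx2. Sv2c had slightly negative values with Nptx2 (-0.21), Vgf (-0.18) and Rgs4 (-0.17). Calb1 and Ptgs2 had the lowest r, -0.35. Library cTKO HP 3 carries part of these values, libraries of one number may come from one mouse, and all genes share the depth and scaling of their library, so that these values are a description.

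**Figure D4:**
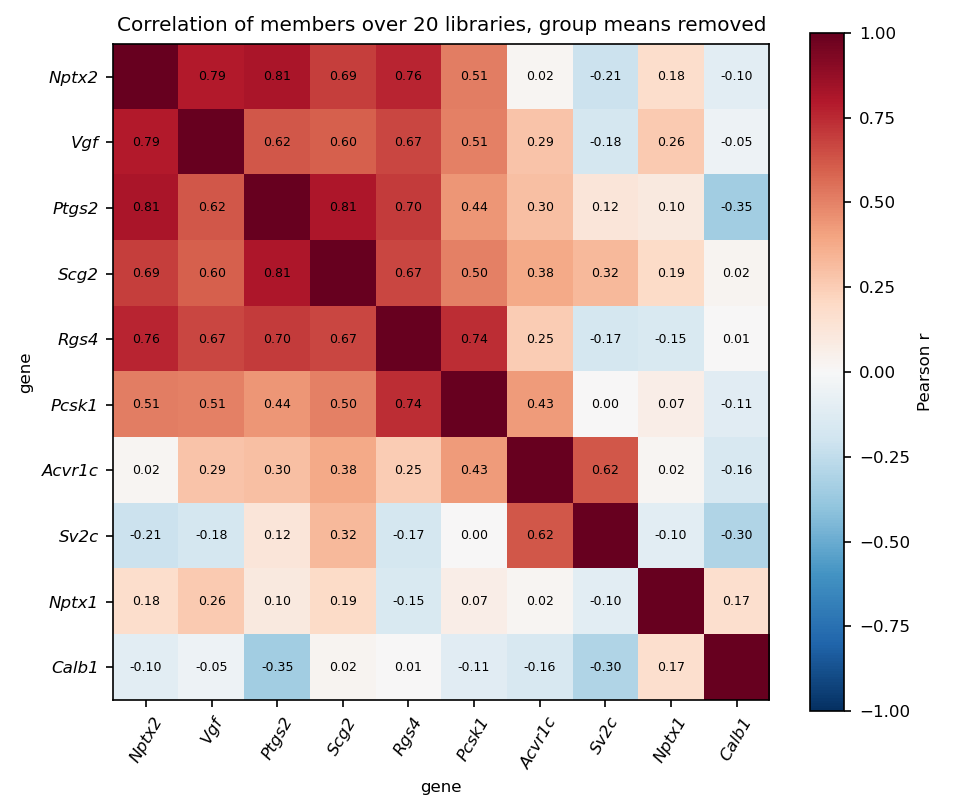
Pearson r between the log2 CPM of each pair of the 10 genes over 20 libraries after the mean of each of the 4 groups was subtracted (colour and number). Nptx2, Vgf, Ptgs2, Scg2, Rgs4 and Pcsk1 form a block of positive values. Acvr1c is closest to Sv2c (0.62) and is also positive with genes of that block, such as Pcsk1 (0.43) and Scg2 (0.38).

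Among the 13469 genes tested in both regions, the gene nearest to each of the 10 by the same measure was named by rule. Ptgs2 was nearest to Bdnf (r = 0.90), the neurotrophin released with activity. Pcsk1 was nearest to Homer1 (0.93), a scaffold of metabotropic glutamate receptors with an activity-induced short form. Nptx2 was nearest to Prosc (0.93), Vgf to Cltb (0.91), Acvr1c to Tatdn2 (0.91), Sv2c to Rev3l (0.87), Rgs4 to Ankrd33b (0.87), Nptx1 to Kcnab2 (0.85), Calb1 to Dnajc11 (0.84) and Scg2 to Grb2 (0.81).

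Promoters are shown because the covarying genes include known targets of CREB, an activity-regulated factor that binds the cAMP response element (CRE) TGACGTCA. Upstream sequence was found in RefSeq's promoters of GRCm38.p6 for 6 of the 10 genes, with 7 start sites, and not for Calb1, Nptx1, Nptx2 and Vgf. A full CRE within 250 bases before the listed start site, on either strand, was found for Scg2 and Pcsk1, 68 and 78 bases before it, inside the span that GENCODE gives Scg2 and RefSeq gives Pcsk1, where 1.55% of 32851 promoters hold one in the same window. The 30 bases around each are given with the CRE in capitals, for Scg2 at chr1:79440076-79440105 (minus strand) and Pcsk1 at chr13:75089768-75089797 (plus strand).
Scg2: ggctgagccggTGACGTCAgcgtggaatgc
Pcsk1: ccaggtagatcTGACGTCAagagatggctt

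The genes called in the hippocampus hold no full CRE in this window. Rgs4 holds the core of the CRE, TGACG, at 236 bases and its reverse, CGTCA, at 141 bases before the start (17.8% of promoters hold 1 or more, and a full CRE holds 2), and the TATA box TATAAA at 31 bases (12.4% of promoters). The AP-1 site TGANTCA (6.75% of promoters) and the E box CACGTG (6.02%) were found in this window in none of the 6 genes. Ptgs2, Acvr1c and Sv2c held none of the motifs searched there. Bases after the listed start were not searched, so that a site in them would have been missed. The upstream bases of Rgs4 (chr1:169747643-169747892, minus strand), of Sv2c (chr13:96132578-96132827, minus strand) and, as far as they lie outside the annotated gene, of Acvr1c (chr2:58357897-58358008, minus strand) are given with the CRE cores and the TATA box in capitals, since these are the 3 genes that rose.
Rgs4: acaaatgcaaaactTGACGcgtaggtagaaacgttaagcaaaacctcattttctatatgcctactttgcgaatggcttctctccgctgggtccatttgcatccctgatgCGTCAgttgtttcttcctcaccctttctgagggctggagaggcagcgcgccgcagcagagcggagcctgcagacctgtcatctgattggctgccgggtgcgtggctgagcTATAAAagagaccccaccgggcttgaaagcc
Sv2c: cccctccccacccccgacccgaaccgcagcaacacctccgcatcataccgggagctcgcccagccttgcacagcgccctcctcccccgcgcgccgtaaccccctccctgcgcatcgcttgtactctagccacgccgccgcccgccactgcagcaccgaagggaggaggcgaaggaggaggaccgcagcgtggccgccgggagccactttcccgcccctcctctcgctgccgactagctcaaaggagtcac
Acvr1c: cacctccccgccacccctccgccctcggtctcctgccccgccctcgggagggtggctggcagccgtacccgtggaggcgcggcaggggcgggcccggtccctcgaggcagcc

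Rgs4 thus holds a TATA box and 2 CRE cores, and the bases before Sv2c and Acvr1c hold neither. A match of letters does not show that a factor binds, and none was measured here.

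Other genes known to follow activity in granule cells were read from a list of 16, of which 14 were tested in the hippocampus and 15 in the neocortex. In the hippocampus 2 of 14 rose and 0 fell at an FDR under 0.05, with a median log2 fold change of 0.36. Penk, the precursor of enkephalins, averaged 33.8 ± 3.65 CPM in the control group and 182 ± 62.0 CPM in the cTKO group (log2 fold change 2.43, SE 0.197, FDR 4.59e-05 by edgeR). Bdnf was at 43.4 ± 2.80 and 101 ± 40.8 CPM (1.21, SE 0.225, FDR 0.0347). Neuropeptide Y (Npy), which granule cells begin to make after seizures, had a log2 fold change of 1.26 with an FDR of 0.0654, and Pdyn, the precursor of dynorphin, one of -0.95 with an FDR of 0.122. Npy and Pdyn were picked out after their values had been seen. In the neocortex 0 of 15 passed and the median was 0.35, with Bdnf at 0.76 (SE 0.170, FDR 0.108) having the smallest p. By its own edgeR analysis the paper called Npy and Bdnf as raised in both regions, with qRT-PCR of other mice in the same direction. It names GABAergic interneurons as cells that secrete Npy.

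Fast immediate early genes on a list of 10 were mostly lower in cTKO mice. Of 10 genes on this list, 9 had a negative log2 fold change in the hippocampus and 10 in the neocortex, with medians of -0.45 and -0.31, where 51.6% and 53.1% of all genes tested had a positive one. The one exception on this list, in the hippocampus, was Egr3. Other activity-induced genes stood on the preceding list, and none of Fosb, Gadd45b, Homer1, Arc and Egr4 passed the test. In that order, their log2 fold changes were 0.68, 0.49, 0.28, 0.044 and -0.37 in the hippocampus. In the neocortex they were 0.35, 0.46, -0.22, -0.23 and -0.18. The count of directions thus rests on how the lists were divided. The transcription factor Npas4 fell in both regions, in log2 units by 1.38 (hippocampus, FDR 0.0434 by edgeR) and 0.81 (neocortex, FDR 0.0144). Btg2, an antiproliferative gene induced by activity, fell by 0.70 in the neocortex (FDR 0.0352). In the hippocampus its log2 fold change was -0.48 (SE 0.123, FDR 0.125 by edgeR). All cTKO libraries there were below all controls, at 10.5 to 15.3 CPM against 15.8 to 21.9 CPM. The others did not pass the test. By its own edgeR analysis the paper called Npas4 and Btg2 as lower in both regions, with qRT-PCR of other mice in the same direction.

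**Figure D5:**
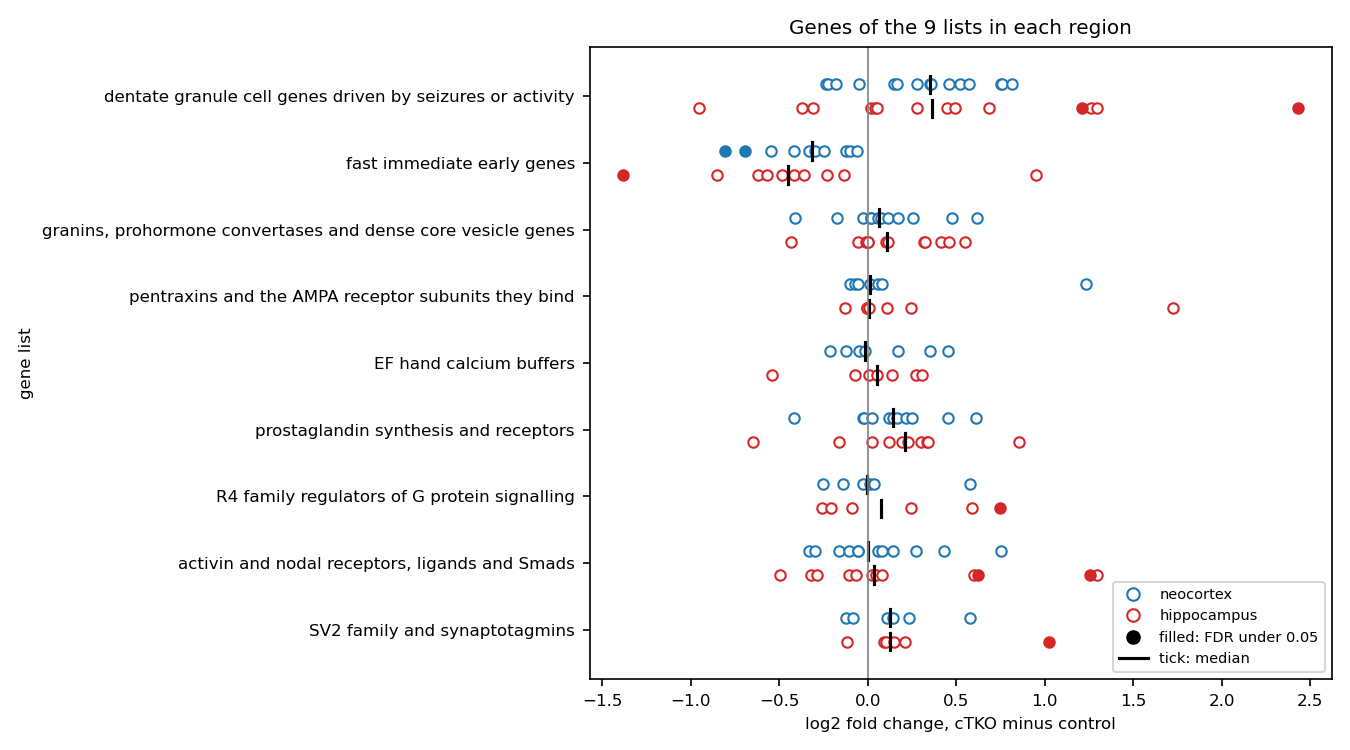
Log2 fold change between cTKO and control libraries (horizontal axis) of the genes of 9 lists in the neocortex (blue) and the hippocampus (red), with list medians as ticks and genes with an FDR under 0.05 filled. Of the list driven by seizures or activity Penk (2.43) and Bdnf (1.21) are filled in the hippocampus, and of the fast immediate early genes Npas4 is filled in both regions.

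Relatives of the 10 genes were read from further lists. Of the 12 granins, convertases and dense core vesicle genes, 0 passed in either region, with medians of 0.11 in the hippocampus and 0.066 in the neocortex. Chgb, another granin, had the smallest p in the hippocampus (0.32, FDR 0.0927), and Cadps2, a priming factor of dense core vesicles, in the neocortex (-0.41, FDR 0.112). Of the pentraxins and AMPA receptor subunits, 0 of 7 passed in either region, and Nptx2 had the smallest p in both. Of 7 EF hand proteins 0 passed, with Calb1 first in the hippocampus and Necab2 in the neocortex (0.45, FDR 0.0933). Of the prostaglandin genes 0 of 10 passed in the hippocampus, where Ptgs2 was first, and 0 of 11 in the neocortex, where Ptgs1, the constitutive cyclooxygenase, was first (0.61, FDR 0.214).

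Of the 6 tested regulators of the R4 family, Rgs4 alone rose in the hippocampus, and Rgs2 had the smallest p in the neocortex (0.58, FDR 0.176). Of the 12 tested receptors, ligands and Smads of activin and nodal, 2 rose in the hippocampus, Acvr1c and Acvr1, which encodes another type I receptor, ALK2 (43.3 ± 1.82 CPM against 66.6 ± 12.9 CPM in the cTKO group, log2 fold change 0.62, SE 0.108, FDR 0.0240). The ligand subunit Inhba had the smallest p in the neocortex (0.75, FDR 0.187) and reached 22.2 CPM in one cTKO HP library against 4.86 CPM in the highest control. Of the 6 SV2 and synaptotagmin genes, Sv2c alone rose in the hippocampus and had the smallest p in the neocortex.

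Of the 8 markers of granule cells, 0 passed the FDR in the hippocampus. Their median log2 fold change was 0.067, with 5 values upward and 3 downward. Prox1, which defines the cells, was at 80.0 ± 11.02 CPM (controls) and 92.6 ± 14.4 CPM (cTKO) (0.21, FDR 0.520). Single markers differed in both directions without passing the test, C1ql2 with the smallest p at 0.77 (FDR 0.0861) and Dsp at -0.83 (FDR 0.0861), with genotypes that overlapped between 46.5 CPM in the lowest control and 47.2 CPM in the highest cTKO library. Tdo2 had the largest downward value of these markers, -1.39 (FDR 0.165). Dsp and Tdo2 were picked out after their values had been seen.

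Markers of the other cells in the tissue were read beside these results, and their part in them was not tested. In the hippocampus 0 genes passed of those of CA1 and CA3 pyramidal cells (smallest p Pou3f1, FDR 0.241, and Iyd, 0.284), excitatory neurons (Slc17a7, 0.260), interneurons (Gad2, 0.0897), astrocytes (Gfap, 0.163), oligodendrocytes (Mag, 0.382), microglia (P2ry12, 0.432) and endothelial cells (Pecam1, 0.429). In the neocortex Wfs1, of the CA1 list, rose by 0.94 on the log2 scale (FDR 0.0307), and of the other lists the smallest p belonged to Stxbp6 (FDR 0.127), Bok (0.223), Camk2a (0.162), Gad2 (0.121), Slc1a2 (0.333), Mobp (0.579), Tmem119 (0.580), Flt1 (0.708), Clic6 (0.756) and Ppp1r1b (0.326). Drd1, of the list of striatal neurons, rose in the hippocampus by 1.92 (FDR 3.31e-05) while the list had a median of 0.034, and this dopamine receptor is also made by granule cells. Markers of choroid plexus, a tissue next to the hippocampus, summed to 75.3 to 2696 CPM in control HP and 111 to 596 CPM in cTKO HP, with Kl having the smallest p (FDR 0.385) and all 5 lower in cTKO mice. Gfap varied between 426 and 3108 CPM in cTKO HP libraries against 333 to 556 CPM in controls, and was highest in cTKO HP 4, where Sv2c was highest and Calb1 lowest. Of the 7 embryonic genes only H19 could be tested (FDR 0.224 in the hippocampus and 0.244 in the neocortex).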

How the data were processed

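Tissue came from 5 mice of each genotype at 3 months of age, and poly-A libraries were read as single ends. Reads were aligned by the authors with STAR 2.5.4a to the mouse genome build mm10, and the raw HTSeq counts of each gene symbol were deposited without normalization. The strand setting and the gene annotation are not given in the sources used here. No column was left unmapped to a sample.

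Counts were scaled by TMM, genes with a CPM over 1 in at least 5 libraries were kept, and genotypes were compared within each region by edgeR 4.0.16 (glmQLFit and glmQLFTest) in R 4.3.3, with Benjamini-Hochberg adjustment over all genes tested. The interaction and the region difference came from one fit of 20 libraries. SEs were computed from the fold change and its F. Single genes were also compared by two-sided exact permutation tests of log2 CPM (prior count 2). The paper names edgeR and TMM but no test or filter. Total counts were 12169474 to 25331954 per library, with a limit of 3 counts as given above. The 10 genes, the 9 gene lists and the 12 marker lists were chosen with earlier results of these data known. All 10 genes are named, and of each list the genes past the FDR and the one with the smallest p in each region. Library numbers deviated together between control NCX and control HP (r from 0.115 to 0.348 in all 5 pairs, by the data and not by the labels), and this block changed no call there. Alternatives were the exact test, DESeq2 1.42.0 (Wald test, no independent filtering), its size factors, 2 other filters, one fit of all libraries, Xist as a covariate, the library number as a block, and each library left out. The fits by edgeR and DESeq2 were run on simulated counts of independent libraries, for the genotype effect in the hippocampus and for the interaction. Libraries that share a mouse were not simulated, and the permutation tests were not run on simulated counts. Gene positions and promoters are from RefSeq (GRCm38.p6) and exon lengths from GENCODE. Figures were drawn with matplotlib.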

Additional observations from a re-analysis of the deposited data

Results flagged for a closer look

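One value was picked out by Dixon's test of the highest or lowest library in each group, run on log2 CPM for 40 groups (10 genes in 4 groups of 5 libraries), where chance marks about 1 group in 20. It was Nptx2 in cTKO NCX 3, at 414 CPM, where the other cTKO NCX libraries were between 52.9 and 95.9 CPM. The same number in the hippocampus, cTKO HP 3, was also the highest of its group for Nptx2, at 171 CPM against 22.8 to 50.7 CPM. Fosb was highest in both of these libraries, at 180 and 107 CPM. It is not stated in the labels if libraries of one number come from one mouse, and no cause was tested.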

How the results depend on the processing

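In the hippocampus 3 of the 10 genes were called, against 7 by the exact test, 7 by DESeq2, 5 in one fit of all 20 libraries and 1 to 6 with a library left out. In the neocortex 0 were called, against 1 by the exact test, 1 by DESeq2 and 0 to 2 with a library left out. By permutation tests 1 had a p under 0.05 there, against 3 with library totals in place of TMM and 0 to 3 with a library left out. For the interaction 0 were called, against 2 by DESeq2, 1 with the replicate block and 0 to 2 with a library left out. With the replicate block 2 were called in the hippocampus, Acvr1c and Calb1 (FDR 0.0364), and Rgs4 (0.0547) and Sv2c (0.0709) were not. Genotypes shared only a number there (r from -0.158 to 0.140, over 0.1 in 1 of 5 pairs) and in the neocortex (0.013 to 0.215, 3 of 5). Between cTKO NCX and cTKO HP, r was -0.091 to 0.375 (median 0.317, over 0.1 in 3 of 5). Xist exceeded Ddx3y in numbers 3 and 5 of both these groups, and the labels do not say if a number marks one mouse. In these comparisons and between the control groups, 1 to 4 libraries of 5 correlated best with their own number. The block called Rgs4 for the interaction (FDR 0.00956).

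Directions turned only for genes that were not called, and only with a library left out, by which the ranges below are given. In the hippocampus Pcsk1 ranged from -0.19 (without cTKO HP 3) to 0.48. In the neocortex Nptx1 ranged from -0.057 to 0.044, below 0 without control NCX 1, control NCX 2 or cTKO NCX 1, and Rgs4 from -0.023 to 0.077, below 0 without control NCX 5 or cTKO NCX 3. For the interaction Nptx2 ranged from -0.22 to 1.38, Vgf from -0.13 to 0.19 and Pcsk1 from -0.0053 to 0.67, each lowest without cTKO HP 3, and Vgf was also below 0 without cTKO NCX 5 (-0.048). As differences of mean log2 CPM, which the permutation tests use, Pcsk1 ranged from -0.19 to 0.32 in the hippocampus, and in the neocortex Nptx1 ranged from -0.061 to 0.036, Rgs4 from -0.030 to 0.073 and Pcsk1 from -0.27 to 0.0054. The causes were not tested. The region difference in controls was called for 7 genes, against 9 by DESeq2, 8 without both libraries with embryonic RNA and 6 to 8 with a library left out. Without those libraries the interaction of Sv2c was 0.18 in place of 0.45.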
